A study of Mus musculus with 4 samples.

Results

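The genes described here are 10 products of goblet cells, the mucus-secreting cells of the gut epithelium, read on arrays of Paneth cells, their neighbours at the base of small intestinal crypts. The members are Muc2, Muc13, Tff3, Fcgbp, Agr2, Spink4, Klk1, Guca2a, Sytl2 and Capn9, and every probe set that the array annotation assigns to one of them was taken. All 10 were on the array, with 15 of its 45101 probe sets, out of 18193 genes that have a probe set naming them alone. Where a gene has more than 1 probe set, the one with the highest mean over the 4 arrays stands for it.

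RNA came from male NMRI mice of 8 weeks, from Paneth cells cut out of frozen small intestine with a laser. The conventionalized mice had been colonized with gut microbes for 10 days, and the germ-free mice had been kept without microbes throughout. In each group RNA of 3 mice was pooled, and 2 aliquots of 10 ng from the pool were amplified and hybridized to 1 Affymetrix array each. The 2 arrays of a group therefore repeat the amplification of 1 pool, so every p-value sets the difference between 2 pools against technical error, and the spread between mice cannot be had. How the conventionalized mice acquired their microbes is not given in the sources used here.

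Goblet cells fill large granules with the gel-forming mucin Muc2, which is cross-linked by disulfide bonds and released to form the mucus layer over the epithelium. Trefoil peptides, the Fc-binding protein Fcgbp and other small proteins are packed with it, and Agr2, a protein disulfide isomerase of the endoplasmic reticulum, is needed to make it. Goblet and Paneth cells arise from a common secretory progenitor, and in mice the mucus layer is known to depend on the microbes present.

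RefSeq promoter sequences of assembly GRCm38.p6 were at hand for 7 of the 10 genes. Those of 4 genes are printed, the 250 bases before the annotated start. They were chosen by the overlap of the groups at the brightest probe set. The arrays of Agr2 and Fcgbp did not overlap between groups there, and those of Muc2 and Guca2a did. At the second probe set of Agr2 the groups overlapped. Capitals mark matches to 7 short motifs searched on both strands: the core promoter box TATAAA, the motif of CDX factors TTTATNG, that of GATA factors spelled AGATAA, that of FOX factors TGTTTAC, that of XBP1 TGACGTGG, that of STAT factors TTCNNNGAA and the E-box CAGCTG. All 4 lie on the plus strand, at chr12:35992675-35992924 for Agr2, chr7:28070986-28071235 for Fcgbp, chr7:141690090-141690339 for Muc2 and chr4:119637482-119637731 for Guca2a.
Agr2: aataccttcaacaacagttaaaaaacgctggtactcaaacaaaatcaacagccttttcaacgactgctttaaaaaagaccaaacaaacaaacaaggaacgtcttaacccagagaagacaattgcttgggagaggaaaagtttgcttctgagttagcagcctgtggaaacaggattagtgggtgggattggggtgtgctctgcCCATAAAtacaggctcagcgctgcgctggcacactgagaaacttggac
Fcgbp: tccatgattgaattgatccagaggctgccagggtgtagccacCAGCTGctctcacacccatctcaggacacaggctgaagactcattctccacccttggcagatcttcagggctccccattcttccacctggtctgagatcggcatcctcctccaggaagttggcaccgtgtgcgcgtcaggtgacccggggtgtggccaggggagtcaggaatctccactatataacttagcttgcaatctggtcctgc
Muc2: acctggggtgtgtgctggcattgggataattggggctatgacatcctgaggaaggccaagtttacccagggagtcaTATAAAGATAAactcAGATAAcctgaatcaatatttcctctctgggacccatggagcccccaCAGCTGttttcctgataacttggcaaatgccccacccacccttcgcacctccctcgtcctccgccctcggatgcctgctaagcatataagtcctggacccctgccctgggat
Guca2a: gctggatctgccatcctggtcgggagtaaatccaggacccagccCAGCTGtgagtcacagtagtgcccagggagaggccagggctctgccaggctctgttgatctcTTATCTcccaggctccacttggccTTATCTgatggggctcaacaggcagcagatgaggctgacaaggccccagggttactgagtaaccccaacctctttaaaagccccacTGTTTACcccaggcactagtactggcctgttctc

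Muc2 and Guca2a each held 2 copies of AGATAA, which 9.99% of all 32851 promoter windows of this length hold at least once. In Muc2 the copy farther from the start overlaps the match to TATAAA, 174 to 169 bases before the start. Muc2, Guca2a and Fcgbp each held 1 CAGCTG, against 13% of all windows with at least 1. Agr2 held a single match, to TTTATNG on the minus strand 48 to 42 bases before its start (9.81% of all windows). Guca2a also held 1 TGTTTAC, 34 to 28 bases before its start (3.17% of all windows). The motif TTCNNNGAA was found in 1 of the 2 windows of Muc13 (7.02% of all windows), and TGACGTGG in none of the 8 windows of these genes (0.563% of all windows). The windows of Klk1, whose groups did not overlap at its brightest probe set, and of Capn9, whose groups did, held no match. The printed genes were picked by their values on these arrays, and none was called. No link between a motif and a difference was tested. A match is a run of letters, not a tested site.

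The arrays were scaled alike, with a mean of 250 signal units on each after trimming 2% from both ends. Conventionalized replicate 2 stood apart, at Pearson correlations of 0.754 to 0.779 with the other arrays over the 22491 probe sets tested, against 0.855 to 0.890 among the other three. The fluidics station was 2 for the conventionalized and 1 for the germ-free arrays, and its effect and that of colonization cannot be told apart. The labelled cell type was checked on its markers, of which 8 of the 12 on the array lay above percentile 95 on all 4 arrays. Lyz1, the Paneth cell lysozyme, read 80185 and 249594 on the conventionalized arrays, against 24112 and 51494 on the germ-free arrays, while Pla2g2a and Habp2 were dim and Defa3 was under the signal filter. Enterocyte markers were as bright, with 14 of 20 above percentile 95 on all 4 arrays and Fabp2 between percentiles 99.91 and 99.97. The markers therefore do not show these arrays to hold RNA of Paneth cells alone.

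Products of goblet cells were bright on every one of these Paneth cell arrays. For 8 of the 10 genes the brightest probe set lay above percentile 95 of all probe sets on all 4 arrays, the lowest being Klk1 at 96.0 on conventionalized replicate 2. Tff3 lay between percentiles 99.5 and 99.6, Muc13 between 99.0 and 99.5 and Muc2 between 98.3 and 98.9. Sytl2 lay between 81.1 and 85.8, and Capn9 between 48.7 and 71.9. A percentile places a probe set on its array, since the signals of different probe sets cannot be set against each other as amounts of RNA. In such pooled captures, fewer goblet cells and less RNA per cell cannot be told apart, nor can the cell that a transcript came from be told.

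Conventionalized and germ-free cells were compared to ask whether colonization altered these genes. No member was called at its brightest probe set (limma, Benjamini-Hochberg adjusted p under 0.05 over all 22491 probe sets tested), where 0.355% of the 12113 genes tested were called, and 1 member, Spink4, had an unadjusted p under 0.05, as had 5.13% of all probe sets tested. None of the 15 probe sets was called, where 0.333% of all were. The median log2 difference, conventionalized minus germ-free, was 0.16 over the 10 genes, beside 0.0033 over all probe sets tested, and 7 of the 10 lay above 0, where 50% of all genes did. That count was 5 with quantile normalization and 6 with each array centred on its median. The median of the 10 was then 0.070 and 0.056, beside -0.046 and -0.10 over all probe sets tested. Leaving out germ-free replicate 1 gave 0.037 for the 10, beside 0.057 over all probe sets tested. Without conventionalized replicate 2 these medians were 0.062 and 0.007. They were 0.36 and -0.11 without germ-free replicate 2, and 0.37 and 0.067 without conventionalized replicate 1. In 4 genes both conventionalized arrays lay above both germ-free arrays and in 1 both lay below, where 15.9% and 16.1% of all genes were so placed. Together these are 5 of 10 genes, beside 32% of all genes, or 7 of 15 probe sets, beside 31.1% of all probe sets tested. With 2 arrays in each group, an exact permutation test could not go below p = 0.333, and none was run.

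**Figure D1:**
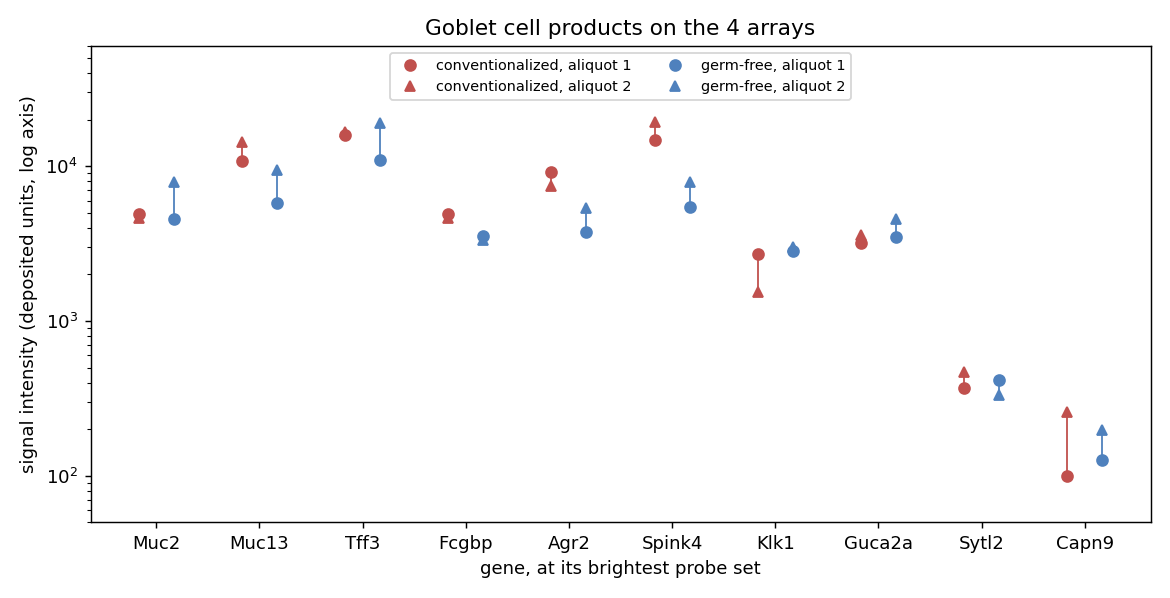
Signal intensity (log axis) of the 10 goblet genes at their brightest probe sets, with conventionalized arrays in red and germ-free arrays in blue, circles for aliquot 1 and triangles for aliquot 2 and a line joining the aliquots of a pool. Both conventionalized arrays stand above both germ-free arrays for Muc13, Fcgbp, Agr2 and Spink4 and below them for Klk1, and the groups overlap for the other genes; levels compare within a gene, not between genes.

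As a group, the duplicates of these genes differed less than those of all probe sets tested, many of which are dimmer. Probe sets of like signal were not set beside them in this way. The log2 difference between duplicates had a standard deviation of 0.56 in the conventionalized and 0.39 in the germ-free group over the 15 member probe sets, against 1.05 and 0.83 over all probe sets tested. The spread of a gene's own duplicates was smaller than its fitted standard error for all 10 genes at their brightest probe sets. The fit, whose prior took infinite weight, gave every probe set the standard error typical of its signal level. Intervals given here rest on that shared error.

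Spink4, a small secreted protein of the Kazal family of serine protease inhibitors, differed most among the members. Its signal was 14861 and 19303 in conventionalized cells, against 5469 and 7971 in germ-free cells. Both conventionalized arrays lay above both germ-free arrays. The log2 difference was 1.35 ± 0.58 (SE, 2 arrays per group), or 2.56-fold, and did not pass the test (limma adjusted p = 0.763, unadjusted p = 0.0202). With any 1 array left out the difference lay between 1.08 and 1.62, at 1.17 without conventionalized replicate 2, and with quantile normalization it was 1.09 with its lowest limma adjusted p, 0.147.

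Agr2, the disulfide isomerase that mucin folding needs, read 9219 and 7489 in conventionalized cells, against 3741 and 5346 in germ-free cells. The groups did not overlap at this probe set, and the log2 difference was 0.89 ± 0.50, or 1.85-fold (limma adjusted p = 0.999). Its second probe set, 1455802_x_at, whose suffix marks probes that can bind other transcripts, read 5050 and 2359 in conventionalized cells, against 2530 and 3348 in germ-free cells. There the conventionalized duplicates lay 2.14-fold apart, on both sides of the germ-free arrays, and the log2 difference was 0.24 ± 0.44. Leaving out conventionalized replicate 1 turned it to -0.30. The probe sets of Agr2 thus gave unlike sizes.

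Muc13, a mucin anchored in the apical membrane of epithelial cells, absorptive cells among them, read 10756 and 14336 in conventionalized cells, against 5834 and 9486 in germ-free cells. The lowest conventionalized array lay just above the highest germ-free array. The log2 difference was 0.74 ± 0.57 (limma adjusted p = 0.999), and 0.39 without germ-free replicate 1. A dimmer probe set of Muc13 read 567 and 446 in conventionalized cells, against 308 and 442 in germ-free cells, a log2 difference of 0.41 ± 0.48, and 0.17 without germ-free replicate 1. The groups touched there, with 446.1 on conventionalized replicate 2 and 442 on germ-free replicate 2.

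Fcgbp, a large protein that binds the Fc part of immunoglobulin G in human and is bound into the Muc2 gel, had the smallest spread of duplicates among the brightest probe sets when both groups are pooled. It read 4951 and 4633 in conventionalized cells, 1.07-fold apart, against 3569 and 3317 in germ-free cells, 1.08-fold apart. The 2 groups were separate by more than either duplicate spread. The log2 difference was 0.47 ± 0.46 (limma adjusted p = 0.999), or 1.39-fold, and it stayed between 0.42 and 0.53 with any 1 array left out.

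Muc2, the gel-forming mucin itself, read 4915 and 4617 in conventionalized cells, against 4558 and 7948 in germ-free cells. The conventionalized duplicates agreed within 1.07-fold and lay inside the range of the germ-free duplicates, which were 1.74-fold apart. The log2 difference was -0.34 ± 0.49 with a 95% interval of -1.29 to 0.62 (limma adjusted p = 0.999), and 0.063 without germ-free replicate 2. The interval still holds a halving, so equal levels are not shown.

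Tff3, the trefoil peptide secreted with Muc2, read 15855 and 16667 in conventionalized cells, against 10936 and 19011 in germ-free cells. Again the germ-free arrays lay on both sides of the conventionalized ones. The log2 difference was 0.17 ± 0.66, with a 95% interval of -1.11 to 1.46, and it turned to -0.32 with quantile normalization and to -0.23 without germ-free replicate 1.

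Guca2a, the precursor of guanylin, a peptide that acts on the receptor guanylate cyclase Gucy2c and drives chloride and water secretion, read 3187 and 3612 in conventionalized cells, against 3497 and 4562 in germ-free cells. The groups overlapped, and the log2 difference was -0.23 ± 0.45, with a 95% interval of -1.12 to 0.66. Its size hung on the germ-free duplicates, at -0.043 with the first alone and -0.42 with the second alone.

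**Figure D2:**
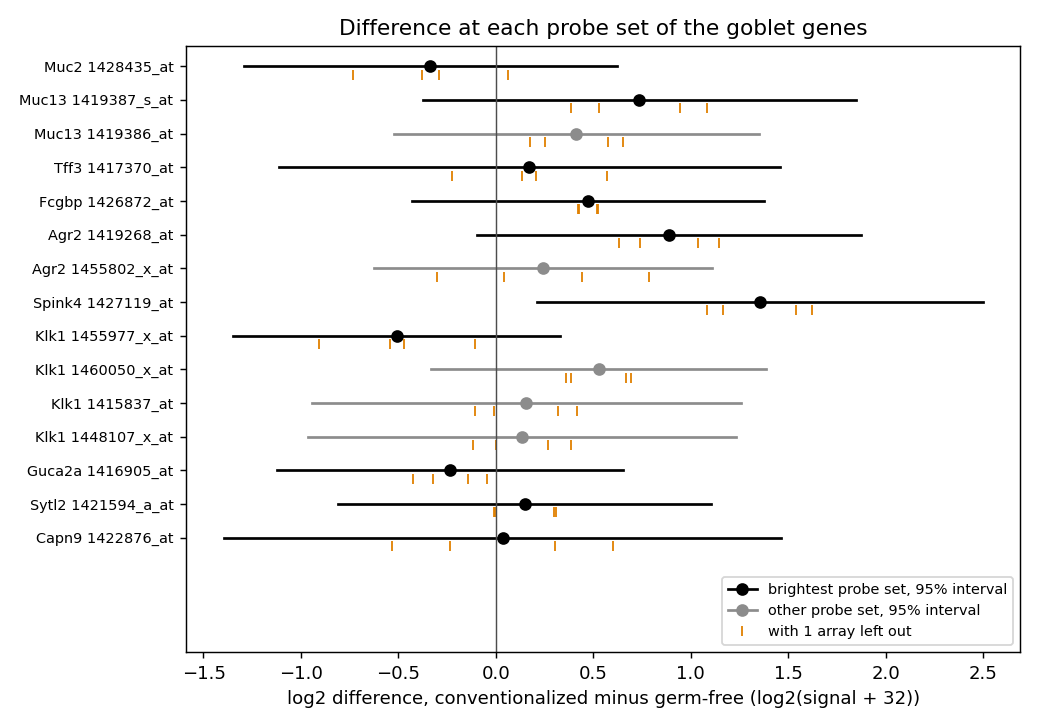
Log2 difference, conventionalized minus germ-free, on the log2(signal + 32) scale for the 15 probe sets of the goblet genes, with 95% intervals from the shared standard error and ticks for the values with 1 array left out. The interval of Spink4 runs from 0.21 to 2.50 before adjustment over all probe sets, and those of the other 14 probe sets include 0; Tff3 and Capn9 also change sign with quantile normalization.

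Klk1, a tissue kallikrein that cuts kininogen to release kinins, had 4 probe sets that did not go one way. The brightest, 1455977_x_at, read 2701 and 1536 in conventionalized cells, against 2842 and 2988 in germ-free cells. Both conventionalized arrays lay below both germ-free arrays, with a log2 difference of -0.51 ± 0.43, but it was -0.11 with the first conventionalized array alone and -0.91 with the second alone. The second, 1460050_x_at, had the opposite order, with 922 and 724 in conventionalized cells, against 503 and 617 in germ-free cells, a log2 difference of 0.53 ± 0.44. Both remaining probe sets had groups that overlapped. At 1415837_at the signal was 332 and 221 in conventionalized cells, against 273 and 211 in germ-free cells. At 1448107_x_at it was 221 and 326 in conventionalized cells, against 269 and 218 in germ-free cells. None was called, and the suffix _x_at of 3 of the 4 matters here, since the mouse has a cluster of Klk1b genes of closely similar sequence. No direction is therefore given for Klk1.

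**Figure D3:**
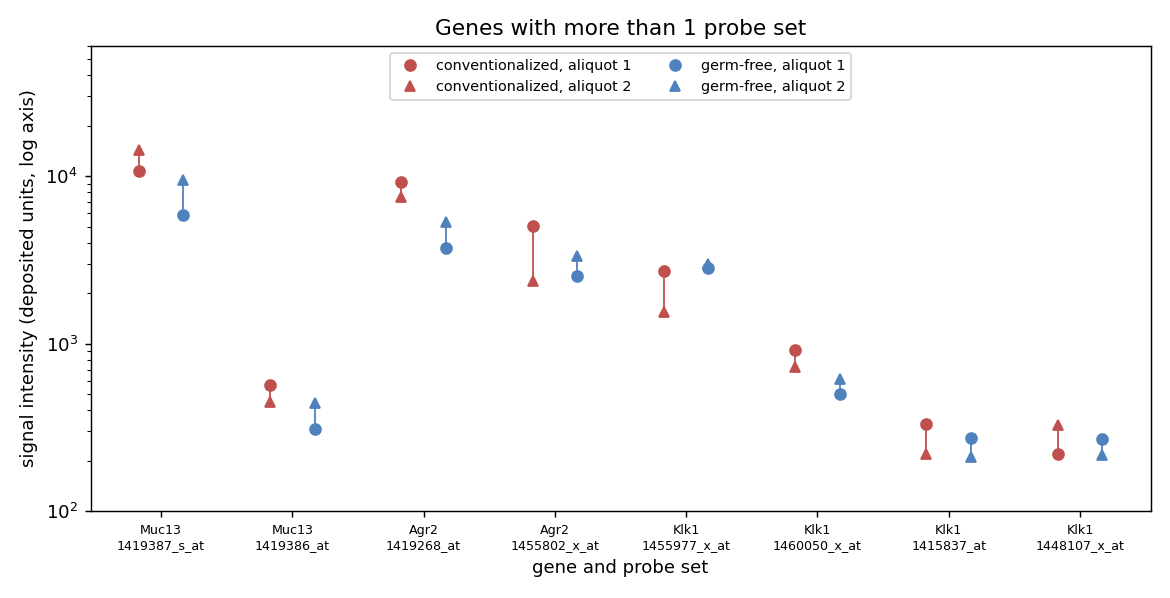
Signal intensity (log axis) at every probe set of Muc13, Agr2 and Klk1, with conventionalized arrays in red and germ-free arrays in blue, circles for aliquot 1 and triangles for aliquot 2. The brightest and the second probe set of Klk1 differ in opposite directions, and the second probe set of Agr2 has conventionalized arrays on both sides of the germ-free arrays.

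Sytl2 and Capn9 belong to the machinery of secretory cells and not to mucus itself. Sytl2, a synaptotagmin-like protein that binds the small GTPase Rab27 and docks secretory granules at the membrane, read 369 and 469 in conventionalized cells, against 417 and 332 in germ-free cells. The groups overlapped, and the log2 difference was 0.15 ± 0.49. Capn9, a calpain protease known from mucous cells of the stomach, read 100.1 and 259 in conventionalized cells, against 127 and 199 in germ-free cells. It was the dimmest member, its conventionalized duplicates lay 2.58-fold apart, and its log2 difference of 0.035 ± 0.73 took either sign with 1 array left out, with median centring and with quantile normalization.

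Among other secreted products of goblet cells some were called. Of 15 on the array, 11 were tested, with 2 called, Retnlb and Mptx1, both higher. Among all genes tested 0.355% were called. The median log2 difference of 0.20 was -0.12 with the first conventionalized array alone and 0.69 with the second alone, and so has no settled sign. Retnlb, a secreted antibacterial resistin-like protein, read 23136 and 21317 in conventionalized cells, against 1426 and 2526 in germ-free cells (log2 difference 3.53 ± 0.51, limma adjusted p = 2.32e-08). Mptx1, a secreted pentraxin, read 16813 and 10187 in conventionalized cells, against 1347 and 2757 in germ-free cells (2.74 ± 0.48, limma adjusted p = 2.51e-05). These groups did not overlap. Neither call was made with median centring, nor when the variance trend was dropped or the prior was set to 4 degrees of freedom. Ang4, an antimicrobial ribonuclease of this list, is also on the list of Paneth markers.

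Both further genes of the same list given here were named after their values were seen. Clca1, a secreted metalloprotease of the mucus gel, read 850 and 1438 in conventionalized cells, against 2223 and 3424 in germ-free cells. Its log2 difference was -1.29 ± 0.42 (limma adjusted p = 0.237). Zg16, a lectin-like protein of goblet granules, read 57301 and 145448 in conventionalized cells, against 19257 and 43750 in germ-free cells, a log2 difference of 1.65 ± 1.03 (limma adjusted p = 0.999). Both had groups that did not overlap, in opposite directions, and neither passed. They do not stand for the list. Of the 11 tested, 4 had both conventionalized arrays above both germ-free arrays and 3 had both below. Among all genes 15.9% and 16.1% were so placed.

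Mucins other than Muc2 and Muc13 were mostly dim. Of 9 on the array 3 were tested, with a median of 0.22 and none called. Muc3, a membrane mucin of the brush border, read 3712 and 5512 in conventionalized cells, against 7662 and 9917 in germ-free cells. The groups did not overlap, and the log2 difference was -0.94 ± 0.51 (limma adjusted p = 0.999). Muc20 read 264 and 765 in conventionalized cells, against 378 and 199.6 in germ-free cells, and overlapped.

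Enzymes that build the sugar chains of mucins showed no member called among 26 tested of 33 on the array, with a median of 0.090 and 17 above 0, a count that was 13 of 25 with quantile normalization and 12 of 26 with median centring. The brightest, B4galnt2, which adds a terminal N-acetylgalactosamine, read 9482 and 8741 in conventionalized cells, against 8543 and 10281 in germ-free cells. Galnt1, which starts O-linked chains, read 2645 and 1754 in conventionalized cells, against 2645 and 2988 in germ-free cells. For both the difference was smaller than its standard error.

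Factors that direct goblet differentiation and secretory protein folding had a median of 0.052 over 19 tested, with none called. Xbp1, a transcription factor of the unfolded protein response that secretory cells need, read 12843 and 12216 in conventionalized cells, against 7245 and 10271 in germ-free cells (0.54 ± 0.58). Hnf4a, a factor of intestinal epithelial identity, differed by 0.082 ± 0.54. Klf4, a factor of goblet maturation and named after its values were seen, read 1545 and 1322 in conventionalized cells, against 2881 and 4075 in germ-free cells. Its groups did not overlap, and the log2 difference of -1.24 ± 0.42 did not pass (limma adjusted p = 0.328). Atoh1 (-0.54 ± 0.51) and Spdef (0.60 ± 0.77), the determinants of the secretory and goblet fates and also named after their values were seen, differed in opposite directions, neither called.

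Around guanylin, ligands, receptor and transporters were tested as a list of 14, with 11 below 0, a median of -0.19 and none called. Guca2b, the related ligand uroguanylin and named after its values were seen, read 453 and 678 in conventionalized cells, against 893 and 1028 in germ-free cells, a log2 difference of -0.75 ± 0.43. Its receptor Gucy2c, likewise, read 798 and 1230 in conventionalized cells, against 951 and 1258 in germ-free cells. The brightest of the list were Kcnn4, a potassium channel (0.52 ± 0.51), and Slc12a2, the chloride importer of secreting cells (0.25 ± 0.49), both above 0 while most of the list was below.

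Smaller families around the members gave none called either. For granule docking and exocytosis, 18 were tested with a median of 0.13; the brightest were Stx3, a membrane fusion protein (-0.25 ± 0.42), and Rab3a, a small GTPase of secretory vesicles (1.12 ± 0.42, limma adjusted p = 0.482). For 13 calpains and their partners the median was 0.049, with Capn15 at 0.39 ± 0.42 and Capn7 at 0.023 ± 0.42. Of 15 kallikreins on the array, listed with kininogen and the bradykinin receptors, 11 lay under the signal filter, as did all 3 of these partners, and the 4 tested had a median of -0.35, with Klk1 itself the brightest and Klk13 at -0.29 ± 0.62. The 7 protease inhibitors tested had a median of 0.021; Serpinb6a, an intracellular serpin and next brightest after Spink4, differed by -0.76 ± 0.52. The 19 disulfide isomerases and partners tested had a median of 0.15; P4hb, the classic isomerase, differed by 0.16 ± 0.57, beside 0.89 for Agr2. Leaving out 1 array changed the sign of the median in 7 of the 10 related lists, the exceptions being granule docking, the guanylin list and the isomerases.

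**Figure D4:**
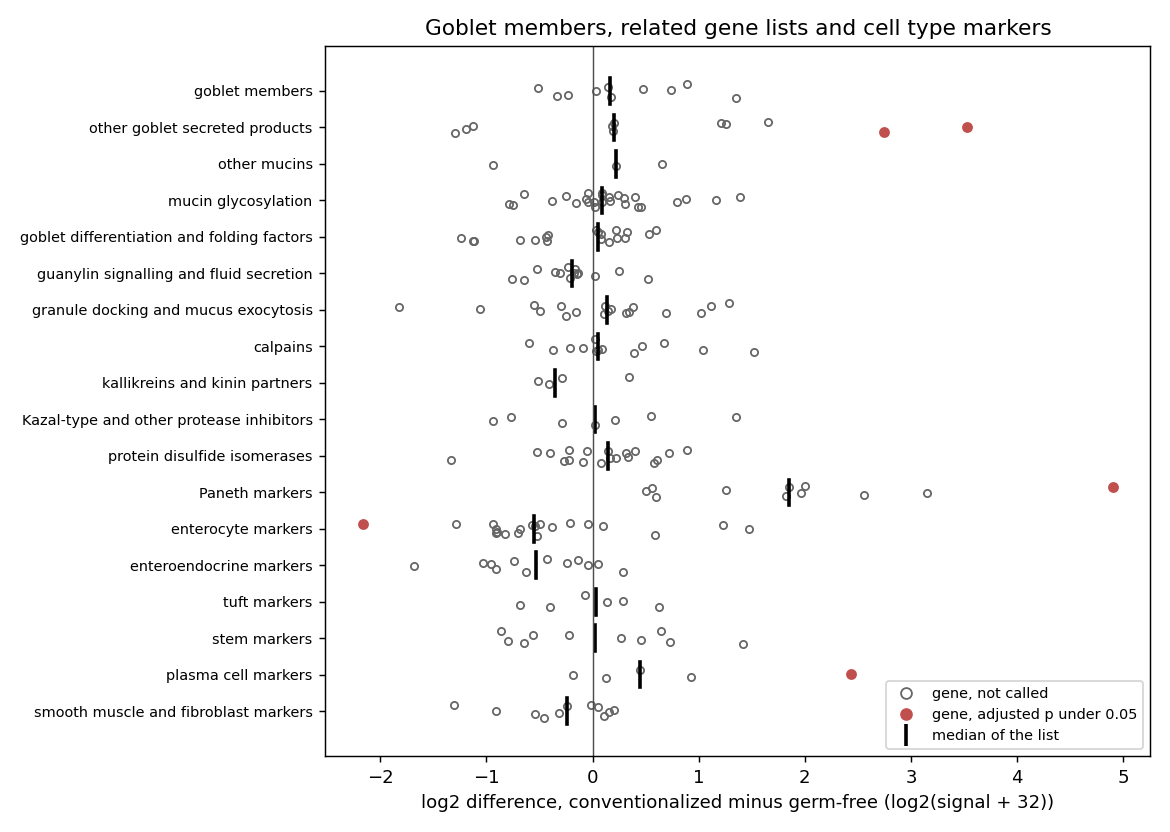
Log2 difference, conventionalized minus germ-free, of each tested gene at its brightest probe set in the goblet members, 10 related lists and 7 lists of cell type markers, with called genes filled and the median of each list as a bar. The members centre on 0.16 with none called, while Paneth markers centre on 1.85; the medians of several lists near 0 change sign with median centring or with 1 array left out.

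Markers of other cell types are given beside the members, since a capture can hold them, and their part in these values was not tested. All 11 Paneth markers tested lay above 0, with quantile normalization and median centring too, and Reg3g was called. Their median was 1.85, but 1.24 with quantile normalization and between 1.23 and 2.42 with 1 array left out. The summed signal of the 12 on the array was 359300 and 888100 in conventionalized cells, against 79850 and 167400 in germ-free cells. The summed signal of the 10 goblet members was 66920 and 72920 in conventionalized cells, against 40990 and 61160 in germ-free cells. Both sums were higher on both conventionalized arrays, but a sum is led by a few bright probe sets. The goblet sum rose most through Spink4, with a mean of 17080 in conventionalized and 6720 in germ-free cells. Muc2 and Guca2a lay below 0, as did Klk1 at its brightest probe set but not at its others. Lyz1 and Defa31 were the brightest Paneth markers. The 20 enterocyte markers had a median of -0.55 with 16 below 0 and Apoc3 called lower. That call was lost with quantile normalization, median centring, the replicate block, no variance trend, the fixed prior, and without conventionalized replicate 1 or germ-free replicate 2, and the median lay between -0.98 and -0.21 with 1 array left out. Their sum was 137100 and 299500 in conventionalized cells, against 132600 and 237700 in germ-free cells; it was led by Fabp2 (1.48 ± 1.03) and Apoa4 (0.59 ± 0.81), and differed more between duplicates than between groups. Of 12 enteroendocrine markers 10 lay below 0 (median -0.53), the brightest being Chgb (-0.24) and Gcg (-1.04).

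Further medians were 0.030 for 6 tuft markers (Alox5ap and Trpm5 brightest), 0.023 for 10 stem cell markers (Olfm4 and Prom1), 0.45 for 5 plasma cell markers (Igha, called higher, and Sdc1) and -0.24 for 11 smooth muscle and fibroblast markers (Acta2 and Vim). The tuft and stem cell medians changed sign with 1 array left out. Stem cell markers ran from -0.86 to 1.42. In 3 of them both conventionalized arrays lay above both germ-free arrays, and in 4 both lay below. Among all genes 15.9% and 16.1% were so placed. No marker in any list was listed at a signal of 0. The call of Igha was lost with median centring, and neither it nor that of Reg3g was made without the variance trend or with the fixed prior. These sums and medians describe 2 pools.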

How the data were processed

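Each array held signal intensities on a linear scale, 1 per probe set, as the authors deposited them. From the values, they had been scaled to a common trimmed mean, and the software used is not given in the sources used here. Scanner parameters, a text of other values deposited for each array, gave the array type (Mouse430_2 per the file headers), chip lot and fluidics station. The chip lot was shared by all arrays, and the station differed between the groups. The fluidics module was 1 and 2 for conventionalized replicates 1 and 2, and 1 and 3 for germ-free replicates 1 and 2. Gene names came from a platform annotation of 2016, whose gene identifiers were looked up in a gene table of GRCm38.p6: 34958 probe sets named 1 gene, 932 several (none of them naming a member) and 9211 none.

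Intensities were turned into log2(intensity + 32), so that folds of dim probe sets come out too small. The 64 control probe sets and those with a mean at or under the median, 113.9, were left out. The groups were fitted with limma 3.58.1 in R 4.3.3 (eBayes with a variance trend), and calls were made at a Benjamini-Hochberg adjusted p of 0.05 over 22491 probe sets. Intervals are 95% intervals. The number of arrays limits the precision.

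The members and lists were chosen with earlier results of these data known. All members are named; from each related list the called genes or the 2 brightest tested, and from each marker list the 2 brightest. Others are said to be named after their values were seen. Alternatives were pseudocounts of 8 and 128, no filter, the brightest 25%, quantile normalization, median centring, no variance trend, a fixed prior of 4 degrees of freedom, a replicate block, another probe set per gene, and leaving out each array. Protein sequences were not analysed here.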

Additional observations from a re-analysis of the deposited data

How the results depend on the processing

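No member was called under any alternative run for it, and of 123 values of the 15 probe sets under alternatives that can move a log2 difference, 109 kept their direction. Sign changes, none of them a call, were those of Capn9 (-0.069 with median centring, -0.019 with quantile normalization) and Tff3 (-0.32 with quantile normalization), and the second probe set of Klk1 (0.53). With 1 array left out, a lone array being assumed to vary like the others, the log2 difference ran from -0.53 to 0.60 for Capn9, -0.23 to 0.57 for Tff3, -0.73 to 0.063 for Muc2, -0.012 to 0.31 for Sytl2, -0.30 to 0.79 for Agr2 1455802_x_at, -0.11 to 0.42 for Klk1 1415837_at and -0.12 to 0.39 for Klk1 1448107_x_at. Median centring moved the median of all probe sets to -0.10, against 0.0033. Over all probe sets the 75 calls became 0 without the variance trend and 0 with the prior fixed at 4 degrees of freedom (975 and 707 at an unadjusted p under 0.05), 21 with median centring, 33 with quantile normalization and 41 to 213 with 1 array left out. The 2 calls in the related lists became 0 with median centring, without the trend and with the fixed prior. The 3 calls among the markers became 1 with median centring, 5 in the brightest 25% of probe sets, 0 without the trend or with the fixed prior, and 2 to 7 with 1 array left out. The cause was not tested. Same-numbered aliquots share only a number (correlation of their deviations -0.13). The replicate block gave 30 calls, and a crossed replicate block, chosen after seeing the data, gave 228, with 4 in the related lists, 7 among the markers and none among the members.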
